A study of Mus musculus with 20 samples.

Results

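Zebrin stripe genes in the cerebellum of SCA3 knock-in mice are described here, namely Aldoc, Slc1a6, Plcb3, Prkcd, Ebf2 and Nrgn. The set is a list of names that uses no measured value as a limit, of genes known for a parasagittal or regional pattern over cerebellar cells, and holds 6 of the 29200 genes counted. It was chosen with earlier results of these data known, so counts of members called are a description beside the share of all genes. RNA of the cerebellum was sequenced from male C57BL6/N mice, with 5 WT/WT and 5 304Q/304Q mice of 2 months and 5 of each genotype of 12 months. The 304Q/304Q mice carry in both murine Atxn3 alleles a hyper-expanded, interrupted CAACAG repeat, set in by zinc-finger nuclease cutting, and all of them descend from 1 founder line. The labels call the WT/WT alleles those of ataxin-2, whereas the methods describe Atxn3, which is used here. The cerebellar samples were kept in RNAlater, and the paper's methods do not say whether the whole cerebellum was taken. Unsorted cerebellar tissue entered each library. Lower RNA of a cell type can therefore come from fewer cells or from less RNA per cell, which cannot be told apart.

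Purkinje cells, the sole output neurons of the cerebellar cortex, fall into zebrin-positive and zebrin-negative stripes that alternate from the midline to the side and receive different climbing fiber input. The stripes are named after zebrin II, the antigen that turned out to be aldolase C, and the zebrin-positive cells also carry the glutamate transporter EAAT4 and phospholipase C beta 3, while zebrin-negative cells carry phospholipase C beta 4 and depend on the transcription factor Ebf2. Zebrin-negative Purkinje cells fire faster and are often lost earlier in mouse models of cerebellar disease. The position of a cell in a stripe is not seen in RNA of whole tissue, and only the summed level of each gene was measured.

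The members differ in where they are made and in what they do. Aldoc (ENSMUSG00000017390, chromosome 11, 78322968 to 78327781, GRCm38) encodes aldolase C, a glycolytic enzyme that astrocytes and Bergmann glia make as well. Slc1a6 (ENSMUSG00000005357, chromosome 10, 78780496 to 78814765) encodes EAAT4, which takes up glutamate at Purkinje cell spines. Plcb3 (ENSMUSG00000024960, chromosome 19, 6952325 to 6976470) encodes the phospholipase that couples mGluR1 to IP3 in zebrin-positive cells, and it overlaps Ppp1r14b on the opposite strand. Prkcd (ENSMUSG00000021948, chromosome 14, 30595354 to 30626210) encodes protein kinase C delta. Ebf2 (ENSMUSG00000022053, chromosome 14, 67233292 to 67430918) is the only one of the zebrin-negative side, and it overlaps antisense genes such as Gm6878. Nrgn (ENSMUSG00000053310, chromosome 9, 37544492 to 37552904) encodes neurogranin, a calmodulin-binding protein that Golgi cells make in the cerebellum. Whether strand entered the counting is not given in the sources used here, and reads of Plcb3 and Ebf2 may include some of their antisense neighbours.

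The RefSeq promoters (GRCm38.p6) of Aldoc, Slc1a6, Plcb3 and Prkcd are shown because these genes are the ones that were lower together at 12 months. Each runs 5′ to 3′ on the strand of the gene, from 250 bases before to 50 bases after the start. Capitals mark matches on either strand to CCCNNGGG, the core of the motif bound by Ebf factors, or to AGGTCA. The latter is the core but not the whole of the site of ROR factors, of which RORalpha acts in Purkinje cells. The stretches are chr11:78322823-78323122 (plus strand), chr10:78780246-78780545 (plus), chr19:6969765-6970064 (minus) and chr14:30626159-30626458 (minus).
Aldoc: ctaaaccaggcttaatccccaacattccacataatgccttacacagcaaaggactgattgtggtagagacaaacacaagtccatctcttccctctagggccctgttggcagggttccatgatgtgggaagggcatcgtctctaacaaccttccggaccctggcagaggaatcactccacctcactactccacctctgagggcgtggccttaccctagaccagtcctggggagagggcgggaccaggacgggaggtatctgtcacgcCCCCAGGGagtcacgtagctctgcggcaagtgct
Slc1a6: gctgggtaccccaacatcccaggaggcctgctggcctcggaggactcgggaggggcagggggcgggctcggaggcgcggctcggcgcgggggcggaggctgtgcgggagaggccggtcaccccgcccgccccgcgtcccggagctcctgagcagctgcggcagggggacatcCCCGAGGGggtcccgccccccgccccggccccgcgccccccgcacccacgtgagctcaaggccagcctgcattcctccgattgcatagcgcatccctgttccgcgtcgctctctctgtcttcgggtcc
Plcb3: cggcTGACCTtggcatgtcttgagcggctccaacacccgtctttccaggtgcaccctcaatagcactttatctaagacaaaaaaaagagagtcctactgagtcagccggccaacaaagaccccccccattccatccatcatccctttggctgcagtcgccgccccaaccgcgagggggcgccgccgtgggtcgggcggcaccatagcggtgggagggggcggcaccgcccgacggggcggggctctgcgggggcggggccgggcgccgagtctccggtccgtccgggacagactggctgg
Prkcd: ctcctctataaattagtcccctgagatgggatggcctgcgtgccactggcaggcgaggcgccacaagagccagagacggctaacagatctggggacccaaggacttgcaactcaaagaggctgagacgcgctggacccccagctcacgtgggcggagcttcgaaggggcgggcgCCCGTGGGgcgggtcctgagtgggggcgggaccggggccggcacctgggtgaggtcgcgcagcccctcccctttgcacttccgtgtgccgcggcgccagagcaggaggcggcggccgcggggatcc

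The promoters of Aldoc, Slc1a6 and Prkcd held CCCNNGGG, with the match of Aldoc beginning 16 bases after the start, and that of Plcb3 held AGGTCA in reverse. Of all 32851 promoters of the same length, 13.7% held CCCNNGGG and 16.3% held AGGTCA. RefSeq gives a second promoter for Aldoc (78323948 to 78324247) and for Prkcd (30610261 to 30610560), and neither these nor the promoter of Nrgn held either motif, so CCCNNGGG was found in 3 of 7 promoters of the members. A match is a description of these letters and no sign of binding.

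The libraries held between 11385380 and 27636687 counts on genes, and the deepest was followed by one of 16606406. Library sizes were scaled by TMM, and levels are given as CPM, each count over the scaled library size. Of the 6 genes, 5 passed the filter of a mean of at least 50 counts and were tested among 12153 genes with edgeR's quasi-likelihood test. A gene was called by an adjusted p-value (Benjamini-Hochberg) of at most 0.05, and a gene that also reached a log2 fold change of 0.5 in size was a DEG. The paper calls the WT/WT mice littermates of the 304Q/304Q mice of the same age, so the genotypes may share litters. No label names a litter, and no fit took litters into account. Nothing says that the mice of a group came from separate litters. The libraries fell into 2 sets of 9 and 11, which no label names. The sets were drawn from these same counts, by the sign of the first surrogate variable. That 18.7% of the genes tested differed between the sets is therefore partly built in. The smaller set held 3 of 5 WT/WT and 2 of 5 304Q/304Q libraries at 2 months, but 1 WT/WT library (replicate 1) and 3 304Q/304Q libraries at 12 months. Values with a term for these sets are given beside the results.

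Per kilobase of exon, Aldoc was by far the most abundant of the 6, with 739 ± 36.4 CPM per kilobase in WT/WT mice of 12 months (SD, n = 5). Slc1a6 followed with 64.1 ± 3.39, and Prkcd and Plcb3 came next with 15.99 ± 0.815 and 14.5 ± 1.495 CPM per kilobase, whose ranges over the mice overlapped. At the low end, the levels of Nrgn (2.72 ± 0.796 CPM per kilobase) and Ebf2 (1.91 ± 0.281) did not differ beyond their spread. Aldolase A, the muscle and brain relative of aldolase C, had 458 ± 31.8 CPM per kilobase in the same mice, below Aldoc.

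At 2 months, none of the 5 genes tested passed the test for the genotype. Among all genes tested, 0.0494% passed the adjusted p, 0.00823% were DEGs, and 1.05% had groups that did not overlap, against none of the 5 for each. Aldoc had 2283, 2258, 2153, 2202 and 2171 CPM in the WT/WT mice and 2138, 2072, 1977, 2208 and 2062 CPM in the 304Q/304Q mice. The groups overlapped, and the log2 fold change of -0.08 had a 95% interval from -0.17 to 0.00 (adjusted p = 0.883, edgeR). For Slc1a6 the interval ran from -0.15 to 0.05, for Plcb3 from -0.17 to 0.14, and for Prkcd from -0.12 to 0.14. Ebf2 lay between 13.7 and 15.4 CPM in WT/WT mice and between 9.93 and 13.7 CPM in 304Q/304Q mice. Its log2 fold change was -0.25 (interval -0.48 to -0.02, adjusted p = 0.86, edgeR). Without adjustment, Ebf2 was the only one of the 5 with a p under 0.05 in edgeR, as were 674 of all genes tested.

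**Figure D1:**
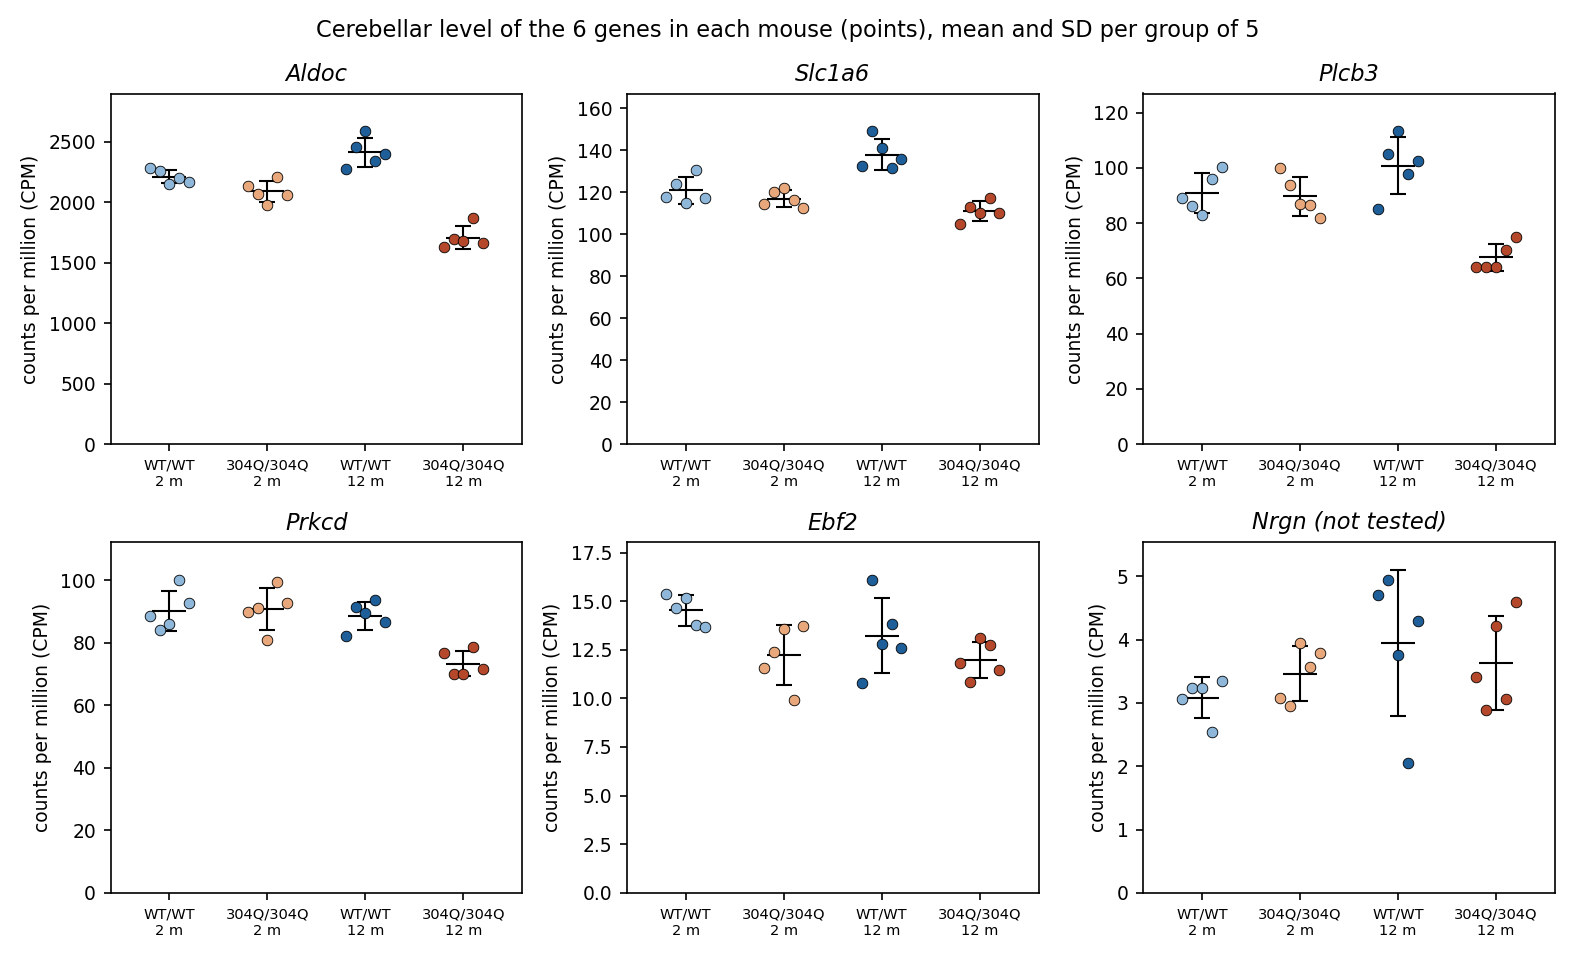
Level of each of the 6 genes in CPM (y axes from 0) in the 20 mice, with a point for each mouse and the mean and SD of each group of 5. At 12 months the 304Q/304Q mice lie at or below 1872 CPM for Aldoc and the WT/WT mice at or above 2276 CPM, while Ebf2 and Nrgn overlap.

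At 12 months, Aldoc, Slc1a6, Plcb3 and Prkcd were lower in the knock-in mice, and Ebf2 did not pass the test. That is 4 of 5 tested, where 7.3% of all genes tested were called lower, and 1 DEG (Plcb3), where 1.83% of all genes were lower DEGs. The values of the genotypes did not overlap for these 4, where 5.43% of all genes were lower without overlap. The median log2 fold change of the 5 was -0.31, and that of all genes was 0.00 (-0.004).

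Aldoc was measured at 2276, 2454, 2589, 2344 and 2401 CPM in the WT/WT mice of 12 months and at 1627, 1700, 1680, 1872 and 1663 CPM in the 304Q/304Q mice. All 304Q/304Q mice were below all WT/WT mice, and replicate 1 was the lowest of both groups. The fold of 0.708 equals a log2 fold change of -0.498 (95% interval -0.58 to -0.41, adjusted p = 1.4e-08 by edgeR's quasi-likelihood test), which ranked Aldoc at place 12 of all genes by p. The size was just under the DEG limit of 0.5. It was at or over the limit without WT/WT replicate 1, 4 or 5 or without 304Q/304Q replicate 4 (lowest value with any library left out -0.53, highest -0.47), and with the term for the 2 sets of libraries (-0.51). Within the sets, the difference in mean log2 CPM was -0.38 (3 304Q/304Q against 1 WT/WT library) and -0.57 (2 against 4).

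Plcb3 had the lowest log2 fold change of the 5 genes tested, although its value and that of Aldoc were alike with the term for the sets. The WT/WT mice had 85.1, 105, 113, 97.8 and 103 CPM, and the 304Q/304Q mice 64.2, 64.2, 64.0, 70.3 and 75.1 CPM. Replicate 1 was the lowest of the WT/WT mice and was the closest to the 304Q/304Q mice. The log2 fold change was -0.58 (interval -0.73 to -0.42, adjusted p = 9.54e-06 by edgeR). Plcb3 itself was lower in the smaller set of libraries by a log2 difference of -0.17 (adjusted p = 0.00746, edgeR). That p-value takes no account of the sets being drawn from these counts. The genotype difference of Plcb3 with the term for the sets was -0.51 (adjusted p = 1.34e-06, edgeR).

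Slc1a6 was at 133, 149, 141, 131 and 136 CPM in the WT/WT mice and at 105, 113, 110, 117 and 110 CPM in the 304Q/304Q mice. The highest 304Q/304Q mouse stayed below the lowest WT/WT mouse. Its log2 fold change was -0.31 (interval -0.41 to -0.21, adjusted p = 0.00011, edgeR). For Prkcd, the WT/WT mice had 82.1, 91.5, 89.4, 93.7 and 86.6 CPM, and the 304Q/304Q mice 76.7, 70.0, 70.0, 78.6 and 71.5 CPM. The gap between the groups was small, and the log2 fold change was -0.27 (interval -0.40 to -0.15, adjusted p = 0.00443, edgeR). The 4 calls held with every library left out and with the term for the sets, where the differences of Slc1a6 and Prkcd were -0.30 and -0.26.

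Ebf2, the zebrin-negative factor, was at 10.8, 16.1, 12.8, 13.8 and 12.6 CPM in the WT/WT mice of 12 months and at 11.8, 10.8, 13.1, 12.7 and 11.4 CPM in the 304Q/304Q mice. The groups overlapped, with a log2 fold change of -0.15 and an interval from -0.38 to 0.09 (adjusted p = 0.426, edgeR), which includes the value of Prkcd. The value for Ebf2 ranged from -0.21 (without WT/WT replicate 1) to -0.07 (without WT/WT replicate 2) with a library left out, and it was -0.04 with 3 surrogate variables in edgeR and in DESeq2. In the smaller set of libraries its difference was 0.17 (3 304Q/304Q libraries against 1 WT/WT library) and in the larger one -0.24 (2 against 4). The 0.17 rests on WT/WT replicate 1 alone, the lowest WT/WT mouse of 12 months for Ebf2, so the direction in that set stays unclear. Nrgn was not tested, since its mean of 49.9 counts missed the limit of 50. It was counted 60, 71, 50, 29 and 55 times in the WT/WT mice of 12 months and 47, 37, 48, 40 and 65 times in the 304Q/304Q mice. At 2 months the counts were 38, 44, 40, 34 and 51 in WT/WT mice and 85, 39, 54, 50 and 61 in 304Q/304Q mice, the 85 in the deepest library. These ranges overlapped at both ages. With a limit of a mean of 10 counts, the log2 fold change of Nrgn was -0.12 at 12 months (interval -0.55 to 0.32, adjusted p = 0.782, edgeR) and 0.16 at 2 months (interval -0.28 to 0.60). Without WT/WT replicate 4 of 12 months, which had the lowest count, Nrgn passed the limit of 50 and had -0.29 at 12 months (adjusted p = 0.306, edgeR) and 0.52 for age in WT/WT mice (adjusted p = 0.0641).

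**Figure D2:**
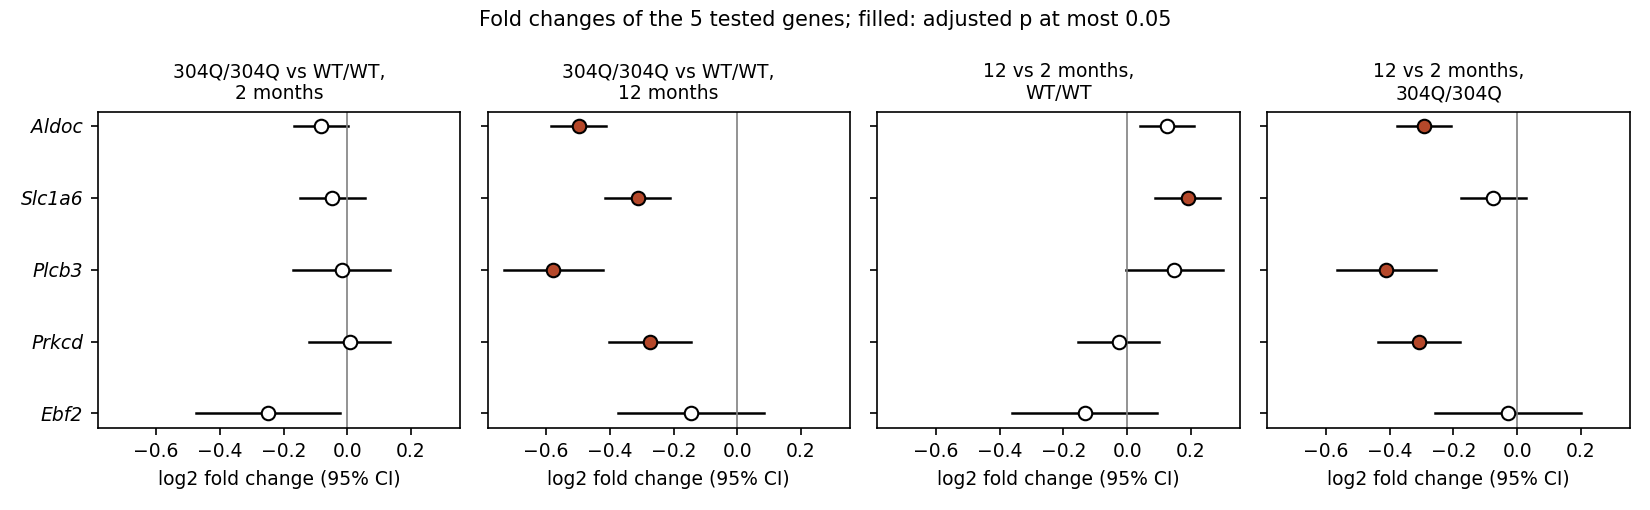
Log2 fold change (x axes, 95% interval) of the 5 genes tested in 4 comparisons, with filled points for an adjusted p of at most 0.05. None is filled for the genotype at 2 months, and 4 are filled on the lower side at 12 months, from -0.58 for Plcb3 to -0.27 for Prkcd.

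The ages were compared within each genotype. In WT/WT mice, Slc1a6 rose between 2 and 12 months, from 118, 124, 115, 131 and 117 CPM to the values given above, with all older mice above all younger ones. The call was lost in a fit with 3 surrogate variables, with no limit on low counts and in a fit of the WT/WT mice alone (adjusted p up to 0.0684, edgeR). The log2 fold change was 0.19 (interval 0.09 to 0.29, adjusted p = 0.0148, edgeR). It was the only one of 5 called, where 6.08% of all genes tested were called higher and 3.64% were higher without overlap. No member was a DEG, where 1.4% of all genes were higher DEGs. Aldoc had a log2 fold change of 0.12 (adjusted p = 0.0518) and Plcb3 of 0.15 (adjusted p = 0.196), and the age groups overlapped for both. With the term for the sets, Aldoc passed (adjusted p = 0.0277) and Plcb3 had 0.08 (adjusted p = 0.446, edgeR). Without WT/WT replicate 1 of 12 months, both Aldoc and Plcb3 passed, and 3 of the 5 were called.

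In 304Q/304Q mice, Aldoc, Plcb3 and Prkcd fell with age, 3 of 5 tested, where 4.18% of all genes were called lower and 0.913% were lower DEGs, of which none was a member. Their ages did not overlap, where 4.2% of all genes were lower without overlap. Aldoc went from 1977 to 2208 CPM at 2 months to 1627 to 1872 CPM at 12 months, with a log2 fold change of -0.29 (adjusted p = 4.23e-05). Plcb3 went from a range of 81.9 to 99.8 CPM to 64.0 to 75.1 CPM, with -0.41 (adjusted p = 0.000755, edgeR). Prkcd went from 80.7 to 99.6 CPM to 70.0 to 78.6 CPM, with -0.31 (adjusted p = 0.00198, edgeR). Slc1a6 had -0.07 (interval -0.18 to 0.03) and Ebf2 -0.03 (interval -0.26 to 0.20). The comparison of the genotypes at 12 months and that of the ages share the 304Q/304Q mice of 12 months.

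The genotype difference itself changed between the ages for Aldoc, Plcb3 and Slc1a6, which is 3 of 5 tested, where 1.31% of all genes were called in this direction and 0.535% were such DEGs, Plcb3 among them. The change in the log2 fold change from 2 to 12 months was -0.42 for Aldoc (adjusted p = 0.000344), -0.56 for Plcb3 (adjusted p = 0.00428) and -0.26 for Slc1a6 (adjusted p = 0.049) by edgeR's interaction term. The call of Slc1a6 was at the limit and was lost in 22 of 29 alternative fits, with adjusted p-values up to 0.172 (edgeR). Prkcd had -0.28 (adjusted p = 0.102), and it passed with 3 surrogate variables in edgeR (-0.34, adjusted p = 0.0215) and in DESeq2 (-0.33, adjusted p = 0.00699) and without WT/WT replicate 4 of 2 months or replicate 1 of 12 months. The value of Ebf2 was 0.10 (adjusted p = 0.777, edgeR). Plcb3 was -0.46 with the term for the sets and was then no DEG.

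A further 7 genes with a stripe pattern were read from the same fit. Of the 5 zebrin-positive ones, 3 were lower in 304Q/304Q mice at 12 months and none higher. Gabbr2, a GABA-B receptor subunit, had a log2 fold change of -0.29 (adjusted p = 0.000152), Ncs1, a calcium sensor, of -0.16 (adjusted p = 0.0246) and Hspb1, the small heat shock protein Hsp25, of -1.116 (adjusted p = 0.00741, edgeR). Hspb1 was a DEG although its groups overlapped, with 5.51 to 18.2 CPM in WT/WT mice and 3.34 to 6.14 CPM in 304Q/304Q mice. It also rose with age in WT/WT mice, with 1.115 on the log2 scale (adjusted p = 0.0105). Sphk1, a sphingosine kinase, had -0.26 (adjusted p = 0.285) and Kctd12, an auxiliary subunit of GABA-B receptors, 0.40 (adjusted p = 0.487). Kctd12 took 1 of 2 levels, 27.95 to 37.4 CPM in 11 libraries and 66.1 to 87.1 CPM in 9, and these were exactly the 2 sets of libraries.

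On the zebrin-negative side, Plcb4, the phospholipase of zebrin-negative cells, had a log2 fold change of -0.15 and was lower (adjusted p = 0.0247, edgeR). Nptn, a cell adhesion protein, had -0.04 (interval -0.13 to 0.05). So 4 of these 7 genes were lower, and their median log2 fold change was -0.16. Gabbr2 also passed for the interaction (-0.28, adjusted p = 0.0298), and Gabbr2 (-0.29) and Plcb4 (-0.15) fell with age in 304Q/304Q mice. At 2 months none of the 7 was called.

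**Figure D3:**
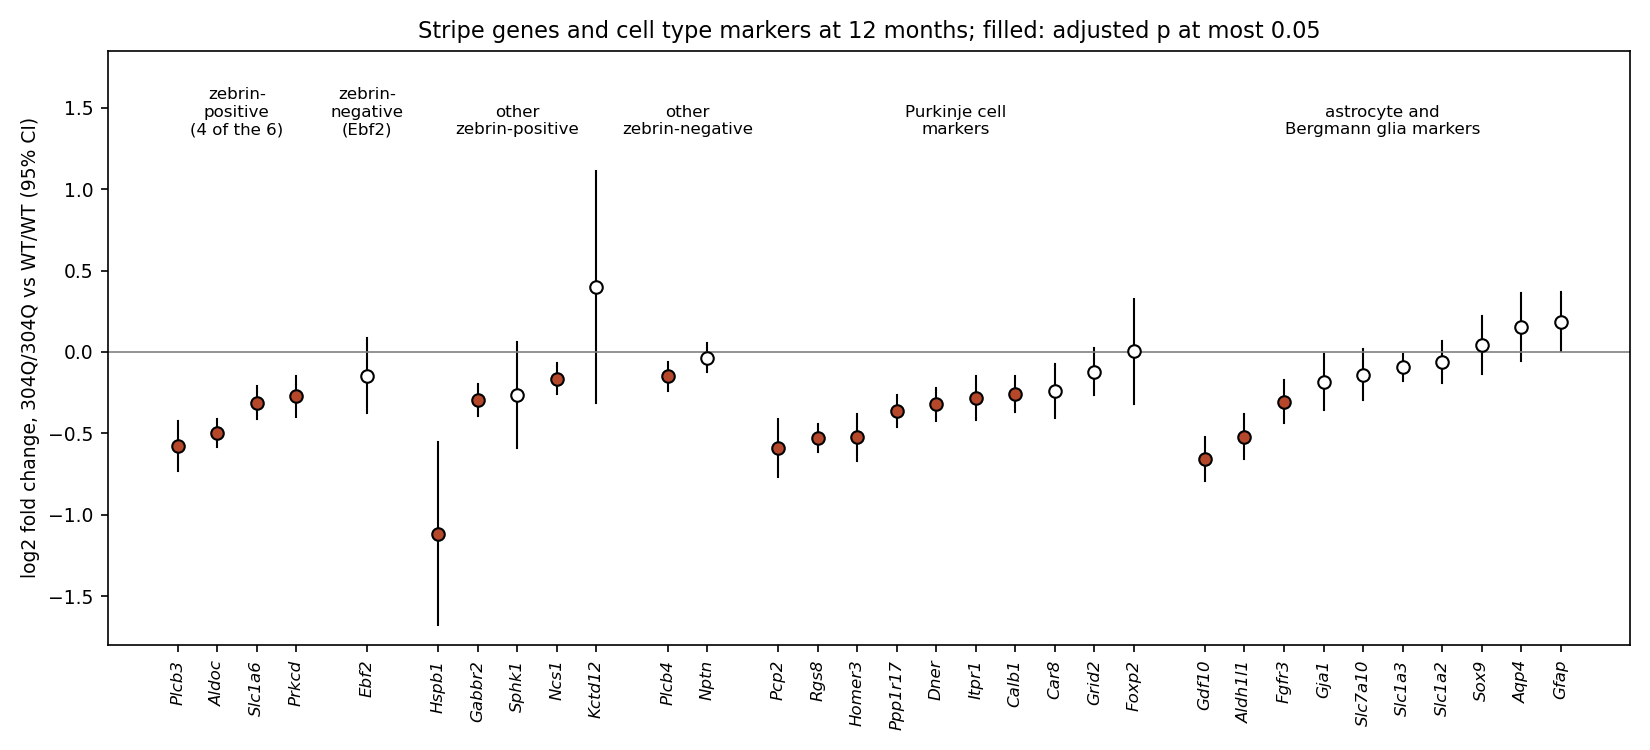
Genotype difference at 12 months as log2 fold change (y axis, 95% interval, 304Q/304Q over WT/WT) of the stripe genes and of the markers of Purkinje cells and of astrocytes and Bergmann glia, with filled points for an adjusted p of at most 0.05. Lower genes are found on both sides of the zebrin pattern and among the markers, from Hspb1 at -1.116 and Gdf10 at -0.66 to Plcb4 at -0.15.

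Markers of all Purkinje cells moved with these genes. Of 10 such markers, 7 were lower at 12 months, namely Pcp2 (-0.59), Rgs8 (-0.53), Homer3 (-0.52), Ppp1r17 (-0.36), Dner (-0.32), Itpr1 (-0.28) and Calb1 (-0.26), with a median of -0.30 on the log2 scale. Their summed level was 8014 to 8846 CPM in the WT/WT mice of 12 months and 6321 to 6925 CPM in the 304Q/304Q mice, and 8307 to 9300 against 7810 to 8635 CPM at 2 months. Set against the mean log2 CPM of the 10 markers in the same library, Slc1a6 differed between the genotypes at 12 months by 0.01, Prkcd by 0.05 and Gabbr2 by 0.03. Aldoc differed by -0.18 and Plcb3 by -0.25, and their groups overlapped through the low WT/WT replicate 1. For Aldoc the difference from the marker mean was 2.31, 2.48, 2.51, 2.52 and 2.48 in the WT/WT mice and 2.17, 2.27, 2.32, 2.35 and 2.29 in the 304Q/304Q mice. Only replicate 1 of the WT/WT mice fell in the range of the 304Q/304Q mice. Nptn was the only one of the 13 stripe genes whose groups did not overlap on this scale (0.29). Its own log2 fold change was -0.04, while the marker mean differed by -0.32 without overlap. The gap of Nptn thus came with the lower marker mean, and the share of all genes with such a gap was not counted. With overlap on this scale, Ebf2 differed by 0.19, Plcb4 by 0.17, Ncs1 by 0.16, Nrgn by 0.24, Sphk1 by 0.06, Kctd12 by 0.68 and Hspb1 by -0.70. Plcb3 less Plcb4 in the same library differed by -0.42 at 12 months and by -0.05 at 2 months. At 12 months it was -2.242 to -1.741 in the WT/WT mice and -2.506 to -2.244 in the 304Q/304Q mice, just without overlap. The part of the Purkinje markers in the lower levels was not tested.

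**Figure D4:**
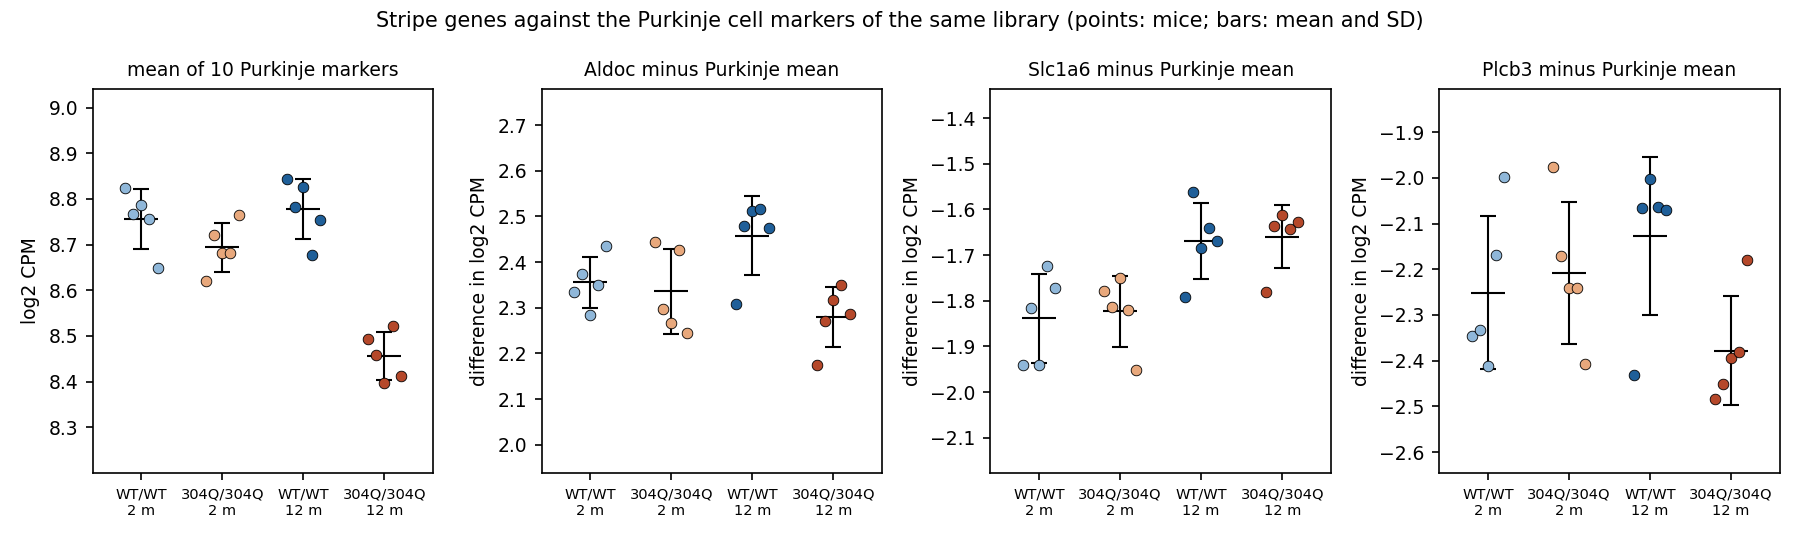
Mean log2 CPM of 10 Purkinje cell markers and the difference of Aldoc, Slc1a6 and Plcb3 from it (y axes, log2) in the 20 mice, with the mean and SD of each group. The marker mean of the 304Q/304Q mice of 12 months is at or below 8.52 and that of all other mice at or above 8.62, and Slc1a6 less the marker mean has like means of -1.67 and -1.66 in the genotypes at 12 months.

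Aldoc is also a gene of astrocytes, among them the Bergmann glia of the cerebellum. Of 10 markers of these cells, 3 were lower at 12 months, Gdf10 (-0.66) and Aldh1l1 (-0.52), both DEGs, and Fgfr3 (-0.31), and none was higher, with a median of -0.12. Gdf10, a secreted growth factor, is made by Bergmann glia. The summed level of the 10 was 3353 to 3648 CPM in WT/WT mice and 3160 to 3355 CPM in 304Q/304Q mice of 12 months, which overlapped. Their mean log2 CPM, in which each marker has the same weight, differed by -0.16, with 7.46 to 7.52 in the WT/WT mice and 7.27 to 7.39 in the 304Q/304Q mice and no overlap. Against this mean, Aldoc was 0.34 lower on the log2 scale (-0.341) in 304Q/304Q mice, with no overlap, and against Aldoa it was 0.53 lower (-0.528), also with no overlap. The level of Aldoa itself differed by 0.03 (interval -0.07 to 0.12). From whole tissue, the shares of Purkinje cells and glia in the Aldoc level cannot be told apart, and the part of the glial markers in it was not tested. Among 3 Golgi cell markers, 2 were lower, Grm2 (-0.52) and Lgi2 (-0.38), as was Mbp (-0.43) of 2 myelin genes, but none of 6 granule cell, 3 molecular layer interneuron and 3 microglia markers was called. Prkcd and Nrgn are strong genes of the thalamus and the forebrain. The summed level of 4 forebrain genes was 6.92 to 13.5 CPM and that of 3 thalamus and midbrain genes 5.58 to 11.01 CPM over all libraries, and the defining genes Emx1 and Gbx2 stayed at or under 0.869 CPM in each.

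Other markers passed for age. In WT/WT mice Pcp2 (0.37), Grm2 (0.27) and Csf1r (0.50) rose, and Slc1a3 (-0.14), Aqp4 (-0.41), Slc6a5 (-0.28), Gabra6 (-0.35), Fat2 (-0.35), Etv1 (-0.52) and Mog (-0.46) fell on the log2 scale. In 304Q/304Q mice 7 of 10 Purkinje markers fell, Rgs8 (-0.44), Car8 (-0.30), Calb1 (-0.29), Homer3 (-0.29), Ppp1r17 (-0.28), Dner (-0.24) and Itpr1 (-0.22). Among the glial markers Gdf10 (-0.47), Slc7a10 (-0.38), Aldh1l1 (-0.29) and Slc1a3 (-0.23) fell with age in these mice and Gfap (0.48) rose. Slc6a5 (-0.39), Lgi2 (-0.32), Fat2 (-0.24) and Mog (-0.72) fell, and Cx3cr1 (0.62) and Csf1r (0.35) rose. The genotype difference changed between the ages for Pcp2 (-0.65), Rgs8 (-0.49), Homer3 (-0.48), Ppp1r17 (-0.38), Dner (-0.28), Gdf10 (-0.59), Aldh1l1 (-0.49) and Grm2 (-0.53).

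Relatives of the members went their own ways. Of 21 family genes tested at 12 months, 3 were lower and 1 was higher, and their median log2 fold change was 0.03. Pcp4, which binds calmodulin as neurogranin does and is strong in Purkinje cells, had -0.65 (adjusted p = 0.00027) and Prkcz, an atypical relative of protein kinase C delta, -0.16 (adjusted p = 0.0233, edgeR). Plcb4 was the other lower one. Pcp4 also passed for the interaction (-0.68). Ebf4, a relative of Ebf2, was higher in 304Q/304Q mice by 0.84 (adjusted p = 0.00144) and rose with age in them by 0.64 (adjusted p = 0.0158), while Ebf1 (0.31, adjusted p = 0.0577) and Ebf3 (-0.19, adjusted p = 0.302) did not pass. With age, Pcp4 (-0.36) and Slc1a3 (-0.23) fell in 304Q/304Q mice, and in WT/WT mice Prkcz (0.16) rose and Prkce (-0.23) fell. The glial transporters Slc1a2 and Slc1a3 had -0.06 and -0.09 at 12 months, neither past the threshold.

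Within the groups, the level of each gene tested was compared with that of all other genes over the 20 libraries after the group mean was taken off. Aldoc was most like Rbfox3 (Pearson r = 0.799), Wbp1l (r = 0.776) and Slc13a3 (r = 0.766), and Plcb3 was most like Sptan1 (r = 0.902), Sept5 (r = 0.885) and Atcay (r = 0.866). For Slc1a6 the nearest were 0610040J01Rik (r = 0.736), Nxt1 (r = 0.717) and Diaph1 (r = 0.705), for Prkcd Wbp4 (r = 0.828), Dusp28 (r = 0.828) and Patj (r = 0.801), and for Ebf2 Bcl2l11 (r = 0.84), Bicc1 (r = 0.756) and Cul4a (r = 0.738). No member was among the nearest genes of another, and the libraries share the 2 sets and the scaling.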

How the data were processed

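RNA of 20 cerebellar samples was sequenced from stranded, poly(A)-selected libraries. Alignment by the authors used STAR (2.4.5b in the submitters' processing notes) on GRCm38, counting per gene used Rsubread, and the authors deposited whole-number counts of 29200 genes, of which 29138 were given a symbol. Groups were taken from the labels. Counts were scaled by TMM and fitted in edgeR 4.0.16 (R 4.3.3, limma 3.58.1) as 1 model over the 4 groups, with genes of a mean of at least 50 counts (12153 genes, common biological coefficient of variation 0.113) and the quasi-likelihood test with Benjamini-Hochberg adjustment over all of them. The study's thresholds (adjusted p of at most 0.05, log2 fold change of at least 0.5) were kept. CPM (counts per library size scaled by TMM) on the log2 scale had a prior count of 2.

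The members and all gene lists were chosen with earlier results of these data known, and a few listed genes are not reported here and were left out of the lists' counts, medians and sums. All members were named, as were listed genes past the adjusted p and their main relatives. Likeness was Pearson's r over the 20 libraries after the group means were removed, and the nearest 3 genes were named. Kctd12, the 2 sets of libraries (by the sign of the first surrogate variable of sva 3.50.0) and the fit with a term for them were chosen after seeing the data. Alternatives were DESeq2 1.42.0, the study's tool, 3 surrogate variables (the study also used sva), other scaling and count limits, a replicate block and leaving out each library. The procedure was tested on simulated data. Promoters were matched by symbol for 5 of 6 members, without Ebf2. All 40 pairs of libraries within a group differed beyond sampling noise.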

Additional observations from a re-analysis of the deposited data

Results flagged for a closer look

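The genotype difference at 12 months less that at 2 months passed edgeR's interaction test for 3 members and 2 listed genes. It was -0.416 for Aldoc, -0.558 for Plcb3 and -0.264 for Slc1a6 on the log2 scale, and the adjusted p of Slc1a6 was 0.049. Gabbr2 (-0.278) and Pcp4 (-0.681) differed in the same direction. By definition, a negative value is a lower log2 fold change of the genotype at 12 months than at 2 months.

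Single mice stood apart from the other 4 of their group in 2 of the 52 gene and group combinations examined, with a gap of more than 0.71 of the group's range, which chance gives in about 5% of groups. Kctd12 was at 72.17 CPM in WT/WT replicate 1 of 12 months, the only library of that group in the smaller set of libraries (gap 0.851 of the range). Ncs1 was at 180.3 CPM in 304Q/304Q replicate 1 of 2 months (gap 0.725 of the range).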

How the results depend on the processing

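The calls of Aldoc, Slc1a6, Plcb3 and Prkcd at 12 months held in all 30 alternatives, with the highest adjusted p at 6.05e-06, 0.0017, 0.000124 and 0.016, and Ebf2 passed in none. The count of member DEGs at 12 months was 1, and 4 by adjusted p alone. It was 2 with 3 surrogate variables (edgeR or DESeq2) and with the term for the 2 sets, and 1 to 2 with a library left out. By adjusted p alone, 1 member was called for age in WT/WT mice, 3 for age in 304Q/304Q mice and 3 for the interaction, against 0, 0 and 1 DEGs. The DEG of the interaction was lost (0) with 3 surrogate variables (edgeR or DESeq2) and with the sets. Members called for age in WT/WT mice were 2 with DESeq2 and 3 surrogate variables and with the sets, 0 with any count above 0 or only the groups compared, and 1 to 3 with a library left out. Members called for the interaction ranged from 2 to 4 with a library left out. Uncalled values near 0 changed sign, Prkcd at 2 months with 3 surrogate variables (-0.014 in edgeR, -0.012 in DESeq2), and with a library left out Prkcd at 2 months (-0.026 to 0.049), Plcb3 at 2 months (-0.06 to 0.02), Prkcd for age in WT/WT (-0.051 to 0.014) and Ebf2 for age in 304Q/304Q mice (-0.093 to 0.016). The cause was not tested. Most same-numbered mice did not deviate together (r from -0.323 to 0.551, 6 of 30 pairs over 0.1). The highest r joined replicate 1 of the WT/WT mice of 2 and of 12 months, both in the smaller set of libraries. Since the sets enter these values, the check cannot exclude a pairing, and the main fit used none. With the replicate block, Aldoc at 12 months was -0.499, 4 members were called at 12 months and 1 was a DEG, and of the members' calls only the interaction of Slc1a6 was lost (adjusted p = 0.0535). The median log2 fold change of all genes lay between -0.016 and 0.007 in all comparisons and alternatives. Nrgn, at about 50 counts a library, and Ebf2 had the widest intervals of the members.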

Other observations

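The gene Kctd12, which divided the libraries into levels of 27.95 to 37.4 and 66.1 to 87.1 CPM, was most like Syncrip (r = 0.969), Arxes2 (r = 0.964), Gm28438 (r = 0.952), Aasdhppt (r = 0.951) and Tmx3 (r = 0.951) over the 20 libraries, genes picked after their values were seen. Between the sets, which were drawn from these counts, Kctd12 differed by 1.24 on the log2 scale. Aldoc (0.03), Slc1a6 (-0.02), Prkcd (-0.04) and Ebf2 (-0.02) did not pass edgeR's test between them. Within the sets, Kctd12 differed between the genotypes at 12 months by -0.04 in the smaller set, which held 1 WT/WT library. The difference was -0.17 in the larger set, against 0.40 over all libraries. The source of the sets was not tested.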
